A study of Mus musculus with 17 samples.

Results

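The CC chemokine genes of mouse chromosome 11 were followed as open chromatin elements: Ccl2, Ccl7, Ccl12 and Ccl8 in the Ccl2 cluster, and Ccl5, Ccl9, Ccl6, Ccl3 and Ccl4 in the Ccl5 cluster, which begins 1.41 Mb further along the chromosome. An element was a stretch of overlapping ATAC-seq peaks, ATAC-seq being the assay in which a transposase cuts accessible DNA, and an element was taken when it lay within 20 kb of the body of 1 of the 9 genes. This gave 63 elements of 99504 in all 17 peak lists, 17 in the Ccl2 cluster and 46 in the Ccl5 cluster, which held 728 of the 808470 peaks. The elements were thus selected on the presence of a peak in at least 1 list. Presence alone is given below as a description. At the edge of the 20 kb reach, the outermost elements inside lay 19.4 kb from Ccl8 (3 lists) and 19.5 kb from Ccl5 (16 lists), and the nearest ones outside lay 20.6 kb from Ccl12 (2 lists) and 21.8 kb from Ccl4 (1 list).

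The lists came from bone marrow-derived macrophages of male C57Bl6/J mice aged 6 to 12 weeks, either wild type (WT) or lacking the nuclear receptor Nur77 (KO), cultured with L929-conditioned medium and kept for 0, 1 or 18 h with 100 ng/ml of lipopolysaccharide (LPS). WT had 3 lists at 0 h, 2 at 1 h (1 of them named replicate 1-2, which may join 2 libraries and was used as 1 list) and 3 at 18 h, and KO had 3 lists at each time. The KO mice lacked Nur77 in the whole body: they came from a cross of mice with a loxP-flanked Nr4a1 gene and a CMV-Cre deleter line, bred on until free of Cre, and the WT mice were littermates. The labels write their genotype as "cre", and they do not say whether replicates came from separate animals, so p-values measure the spread between these samples.

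CC chemokines are small secreted proteins that draw leukocytes through G protein-coupled receptors, and activated macrophages are a major source of them. Ccl2, Ccl7 and Ccl12 are monocyte chemoattractants that act on Ccr2, and Ccl8 is their neighbour and relative. Ccl3, Ccl4 and Ccl5 attract monocytes and T cells, whereas Ccl6 and Ccl9 are related ligands of Ccr1 that myeloid cells make without stimulation. LPS signals through Tlr4 to NF-kB and AP-1, and through autocrine interferon to factors that bind the interferon-stimulated response element (ISRE).

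Peaks were ranked inside each list by their deposited -log10 p-value, rank 1 being the strongest and tied peaks sharing their mean rank, because the lists differed in length from 24389 to 71456 intervals. The estimated background at a summit ran from 0.0581 to 2.11 reads per list, the shallowest list being WT 1 h replicate 1-2. The standing of an element was log2 of 24389 divided by its rank, so that 0 marks no peak or a rank past 24389, and each step of 1 a 2-fold better rank. Standing is relative to the other peaks of a list and is not a read density. In KO 18 h replicate 1 the peaks had a median width of 135 bp, against 338 to 661 bp in the other lists. KO and WT lists also differed in length, with 27429 to 70397 against 63097 to 71456 intervals at 0 h, 36351 to 70843 against 24389 and 40992 at 1 h, and 29568 to 36136 against 46364 to 61492 at 18 h, where the lengths do not overlap and cannot be told apart from genotype. In WT the lengths at 0 h, 1 h and 18 h do not overlap either, nor do those of KO at 1 h and 18 h. List length cannot be told apart from LPS time in these lists. The promoters of 7 of 7 macrophage genes, Csf1r, Spi1 and Adgre1 among them, held a peak in 17 of 17 lists. Those of Cd3e, Cd3g, Ly6g, Krt8 and Col1a1 held none in any list, whereas S100a8, a gene of neutrophils, had a promoter peak in 16 lists, Pdgfra in 10, Pax5 in 5 and Epcam in 4. The part of other cells in the results was not tested. The stretch of Nr4a1 from its first to its last full-length exon (chr15:101270083-101274795) held a peak in 0 of 17 lists, WT included, so that the lists do not check the knockout.

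Stretches of reference DNA at the elements on which the LPS comparisons turn are shown first. Elements were named by the nearest start site of the 9 genes and the distance of their best summit from it, negative values lying upstream. For 5 distal elements the sequence runs 100 bases to either side of the best summit on GRCm38 (mm10), read 5′ to 3′ on the + strand, and capitals mark matches to AP-1 (TGACTCA), ISRE (GAAANNGAAA) or NF-kB motifs on either strand. Ccl2 -19.1 kb and Ccl5 -4.4 kb are shown as the distal elements with the largest differences at 1 h, and Ccl7 -3.8 kb and Ccl5 -10.7 kb as those with the largest differences at 18 h. Ccl4 -3.5 kb is shown as an element that was among the best peaks at 1 h alone. All were picked after their values were seen. No match overlapped another.
Ccl2 -19.1 kb element, chr11:82016357-82016556, + strand: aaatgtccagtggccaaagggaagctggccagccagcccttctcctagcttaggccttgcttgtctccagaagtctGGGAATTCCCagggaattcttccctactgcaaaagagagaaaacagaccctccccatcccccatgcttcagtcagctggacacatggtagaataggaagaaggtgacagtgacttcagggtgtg
Ccl7 -3.8 kb element, chr11:82041767-82041966, + strand: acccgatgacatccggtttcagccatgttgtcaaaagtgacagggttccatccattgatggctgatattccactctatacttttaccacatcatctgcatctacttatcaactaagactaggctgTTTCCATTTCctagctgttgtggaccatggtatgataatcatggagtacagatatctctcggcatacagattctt
Ccl5 -4.4 kb element, chr11:83534802-83535001, + strand: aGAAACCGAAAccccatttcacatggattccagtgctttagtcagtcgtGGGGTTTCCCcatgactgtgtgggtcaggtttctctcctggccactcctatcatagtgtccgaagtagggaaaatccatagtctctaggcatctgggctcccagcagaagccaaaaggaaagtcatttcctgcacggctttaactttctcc
Ccl5 -10.7 kb element, chr11:83541090-83541289, + strand: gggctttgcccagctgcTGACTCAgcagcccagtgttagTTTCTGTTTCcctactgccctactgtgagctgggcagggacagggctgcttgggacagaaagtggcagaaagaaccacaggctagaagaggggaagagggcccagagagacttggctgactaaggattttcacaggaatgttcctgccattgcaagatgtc
Ccl4 -3.5 kb element, chr11:83658941-83659140, + strand: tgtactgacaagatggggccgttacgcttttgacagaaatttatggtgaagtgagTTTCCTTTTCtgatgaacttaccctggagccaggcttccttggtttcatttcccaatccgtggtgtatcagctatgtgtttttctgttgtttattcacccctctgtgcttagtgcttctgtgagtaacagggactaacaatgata
The Ccl2 -19.1 kb window held an NF-kB match, the Ccl7 -3.8 kb and Ccl4 -3.5 kb windows an ISRE match each, the Ccl5 -4.4 kb window both, and the Ccl5 -10.7 kb window an AP-1 and an ISRE match.

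RefSeq promoter entries (GRCm38.p6) were matched for 5 of the 9 genes, Ccl12, Ccl8, Ccl9, Ccl6 and Ccl3, and not for Ccl2, Ccl7, Ccl5 and Ccl4. The 250 bases before the start sites of Ccl9 and Ccl6 are shown because the Ccl9 element rose and the Ccl6 element fell at 1 h, with matches in capitals. Both matches lie on the reverse strand of the stretch shown, to NF-kB in Ccl9 and to the Nur77 response element NBRE (AAAGGTCA) in Ccl6.
Ccl9 promoter, chr11:83578637-83578886, - strand: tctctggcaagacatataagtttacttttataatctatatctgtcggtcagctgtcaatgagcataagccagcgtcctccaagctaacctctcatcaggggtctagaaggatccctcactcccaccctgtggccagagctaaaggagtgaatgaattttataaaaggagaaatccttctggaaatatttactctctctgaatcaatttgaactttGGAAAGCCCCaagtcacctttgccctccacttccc
Ccl6 promoter, chr11:83593088-83593337, - strand: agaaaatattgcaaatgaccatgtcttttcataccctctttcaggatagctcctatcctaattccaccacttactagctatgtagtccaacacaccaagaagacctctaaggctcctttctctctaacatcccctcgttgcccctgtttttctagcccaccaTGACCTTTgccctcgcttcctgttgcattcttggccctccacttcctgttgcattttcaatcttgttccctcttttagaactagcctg
The first base of the NF-kB match lay 35 bases before the Ccl9 start and that of the NBRE match 88 bases before the Ccl6 start. The Ccl3 promoter held a C/EBP match 100 bases before its start, and the Ccl12 and Ccl8 promoters held no match to any of the 6 motifs searched.

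Of the elements that could be tested, 19 of 31 stood higher after 1 h of LPS, the promoters of Ccl2, Ccl7, Ccl12, Ccl5, Ccl9 and Ccl4 among them, and 10 stood higher after 18 h. Of the 63 elements, 31 were among the best 24389 peaks of at least 2 lists and could be tested, 8 in the Ccl2 cluster and 23 in the Ccl5 cluster, and 32 could not. At 1 h against 0 h, 19 of the 31 were higher and 1 was lower at an adjusted p under 0.05 (exact permutation tests within genotype, Benjamini-Hochberg adjustment over all 34139 tested elements), where 10.2% of all tested elements were higher and 12.4% lower. At 18 h against 0 h, 10 were higher and 2 lower, beside 6.28% and 8.64% of all. Between 1 h and 18 h, 1 rose and 12 fell, beside 5.2% and 8.25% of all. The median difference over the 31 was 0.87 at 1 h and 0.05 at 18 h, against -0.02 and 0 over all elements. Of the 31 elements, 8 were among the best peaks of no 0 h list and passed the filter through LPS lists alone. They held 3 of the 19 higher at 1 h and 2 of the 10 higher at 18 h, and their differences are given below as a description. Among the other 23 tested elements, 16 were higher and 1 lower at 1 h, 8 were higher and 2 lower at 18 h, and 0 rose and 10 fell between 1 h and 18 h. Every 1 h list stood above every 0 h list at 17 of the 31 elements, which was so for 8.58% of all tested elements. Every 18 h list stood above every 0 h list at 9, which was so for 5.54%. With ranks cut at 10000 in place of 24389, 7, 2 and 6 of 18 elements were called in the 3 comparisons. By presence in place of rank, with peaks that cover 50% of the element, without the filter or with replicate numbers as a block, 0 were. At these sample sizes the exact test reaches no p below 0.005, which after adjustment is 0.0272 at 1 h and 0.0335 at 18 h. When any of 7 lists was left out, no element of the series passed at 1 h against 0 h (3 WT 0 h lists, both WT 1 h lists, KO 0 h replicate 1 and KO 1 h replicate 1). Without KO 0 h replicate 1 or 2 the count at 18 h against 0 h was 7 or 6 in place of 12. The Ccl12, Ccl4 and Ccl9 promoters and Ccl7 -3.8 kb lost their call at 18 h without any 1 of the 3 KO 0 h lists. For 18 h against 1 h no element of the series passed when any of the 11 lists was left out.

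**Figure D1:**
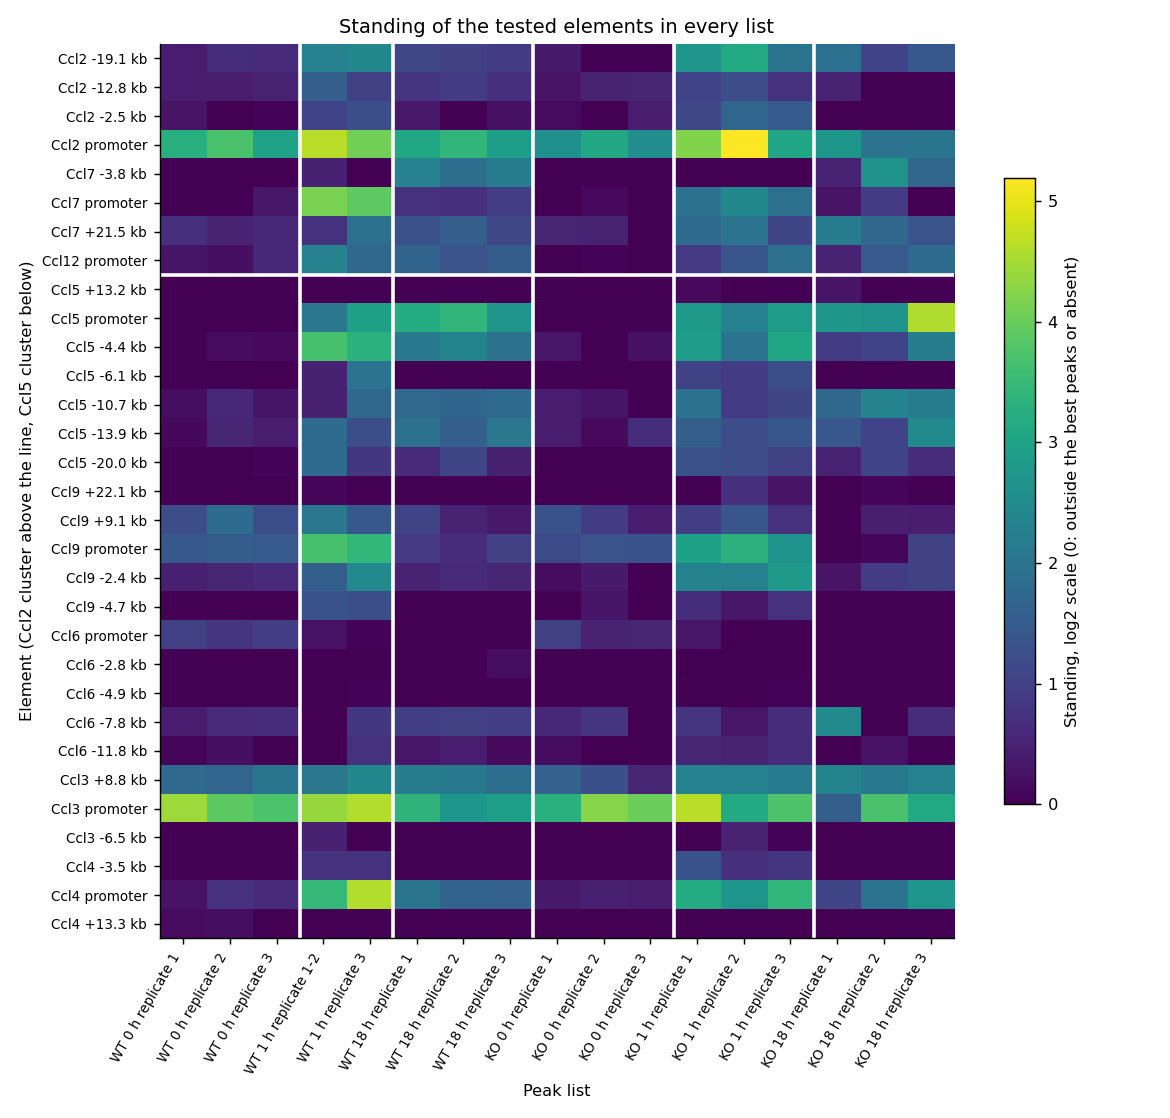
Standing of the 31 tested elements (rows, Ccl2 cluster above the white line) in each of the 17 lists (columns, groups parted by white lines), the colour scale being log2 and 0 meaning no peak or a rank past 24389. The columns at 1 h hold the brightest cells at most promoters, and the Ccl5 promoter row is dark in all 6 lists at 0 h.

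The clusters are given side by side, with no test between them. In the Ccl2 cluster 7 of 8 tested elements were higher at 1 h and 4 at 18 h, with median differences of 1.18 and 0.70. In the Ccl5 cluster 12 of 23 were higher and 1 lower at 1 h, and 6 higher and 2 lower at 18 h, with medians of 0.75 and 0.03. Between 1 h and 18 h, 5 of 8 and 7 of 23 elements fell, Ccl5 -6.1 kb and Ccl4 -3.5 kb among the latter. By gene, elements nearest to Ccl2 rose at 1 h in 4 of 4 cases and fell from 1 h to 18 h in 4 of 4. Those nearest to Ccl5 rose at 1 h in 6 of 7 cases, the promoter and Ccl5 -6.1 kb among them, and stood higher than at 0 h at 18 h in 5 of 7, the promoter among them. Of the 5 tested elements nearest to Ccl6 none rose. Counted per list, the Ccl2 cluster had 6 ± 1 elements among the best 24389 peaks in WT at 0 h (SD, n = 3), 8.5 ± 2.12 at 1 h (n = 2) and 7.67 ± 0.577 at 18 h (n = 3). In KO it had 4.33 ± 1.15, 7 ± 0 and 6 ± 1 (n = 3 each). The Ccl5 cluster had 13.3 ± 1.15, 17.5 ± 0.707 and 13.7 ± 0.577 in WT and 10.7 ± 2.52, 19.3 ± 0.577 and 12 ± 1 in KO. In the Ccl5 cluster every list at 1 h lay above every other list, which is a description only. The counts take in elements that were among the best peaks at 1 h alone, such as Ccl5 -6.1 kb and Ccl4 -3.5 kb. In WT 1 h replicate 1-2 the cut is the length of the list, so that every peak counts. The same count was not made over all elements.

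**Figure D2:**
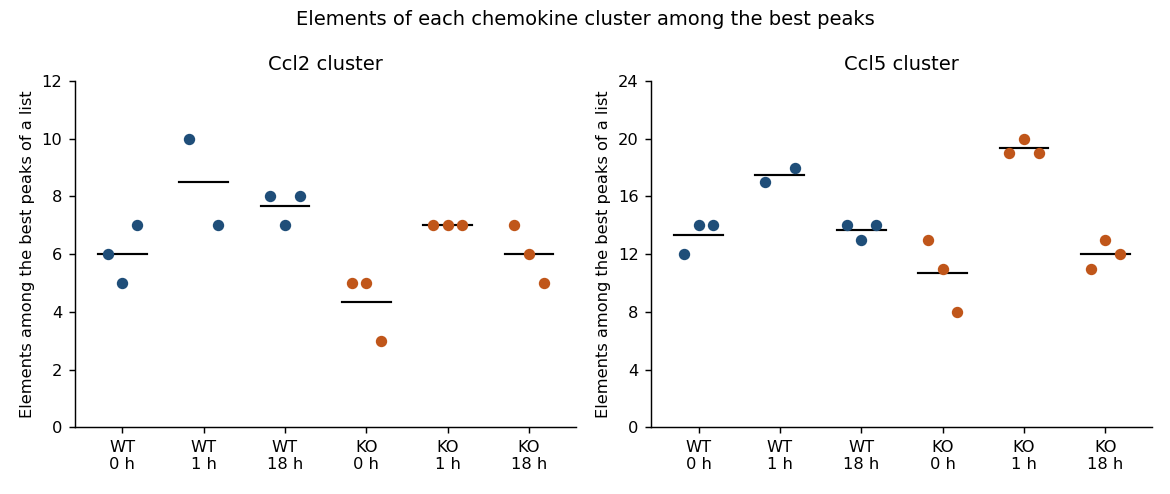
Number of elements of each cluster among the best 24389 peaks of a list (points, 1 per list; bars, group means) in WT (blue) and KO (orange). The Ccl5 cluster held 17 to 20 such elements at 1 h and 8 to 14 at 0 h and 18 h, counting elements that were among the best peaks at 1 h alone.

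Ccl2, the main monocyte chemoattractant, had open chromatin at its start site in every list, LPS or not. Its promoter element (chr11:82034863-82040544, gene at chr11:82035571-82037453 on the + strand) ranked 2516.5, 1888.5 and 3058 in WT at 0 h, 978.5 and 1429 at 1 h, and 2874.5, 2286 and 3256 at 18 h. In KO the ranks were 4015, 2835 and 4206 at 0 h, 1314, 667.5 and 2909 at 1 h, and 3640, 6227 and 6086.5 at 18 h. Mean standing was 3.32 ± 0.35, 4.37 ± 0.39 and 3.14 ± 0.26 in WT (SD, n = 3, 2 and 3) and 2.75 ± 0.31, 4.16 ± 1.06 and 2.24 ± 0.44 in KO (n = 3 each). The 1 h lists ranked it best in each genotype except for KO 1 h replicate 3, which lay among the 0 h lists. Its standing was 1.23 higher at 1 h than at 0 h (exact permutation test, adjusted p = 0.0442). With ranks cut at 10000 in place of 24389 the adjusted p was 0.0503, and leaving out any of 10 of the 11 lists took it over 0.05. At 18 h it had fallen by 1.58 from 1 h (adjusted permutation p = 0.0372) and differed from 0 h by -0.35 (adjusted permutation p = 0.281), which is inside the spread between lists. The peak at the start itself, with its summit 78 bases upstream (-78) in an intron of the overlapping gene Gm17268, carried these ranks. Weaker summits 1.1, 2.1 and 2.9 kb past the start were present in 12, 11 and 14 lists.

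Upstream of Ccl2, 3 elements were higher at 1 h, and 1 of them also at 18 h. The Ccl2 -19.1 kb element, in an intron of Gm31522 and shown above with its NF-kB match, ranked 18515, 15254.5 and 15693 in WT at 0 h, 4926 and 4571.5 at 1 h and 11323.5, 11916 and 13010.5 at 18 h. In KO it ranked 18882 in 1 list at 0 h with no peak in the other 2, 3745.5, 2689 and 6110.5 at 1 h and 6567, 11750 and 9081.5 at 18 h. Every LPS list stood above every 0 h list, by 2.15 at 1 h (adjusted permutation p = 0.0272) and by 0.89 at 18 h (adjusted permutation p = 0.0335). With ranks cut at 10000 these differences were 1.21 (adjusted permutation p = 0.0314) and 0.12 (adjusted permutation p = 0.681), and when a peak had to cover 50% of the element the 1 h difference was -0.11. The Ccl2 -12.8 kb and -2.5 kb elements were 0.69 and 1.14 higher at 1 h (adjusted permutation p = 0.0272 for both) and 0.04 and -0.05 away from 0 h at 18 h.

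Ccl7, another ligand of Ccr2, had the largest early difference of the Ccl2 cluster. Its promoter element (chr11:82045172-82049269, gene at chr11:82045712-82047525, + strand) ranked 24397.5, 28331 and 19429.5 in WT at 0 h, 1375.5 and 1634.5 at 1 h and 14582.5, 15047 and 12651.5 at 18 h. The KO ranks were 24546.5 and 22197 at 0 h with no peak in replicate 3, then 6270, 4525 and 6425 at 1 h and 20182, 12930.5 and 29265 at 18 h. All 5 lists at 1 h were above all 6 at 0 h, by 2.99 (adjusted permutation p = 0.0272), or by 1.78 with ranks cut at 10000 (adjusted permutation p = 0.0314). The difference at 18 h was 0.52 (adjusted permutation p = 0.077), and the fall from 1 h to 18 h was -2.47 (adjusted permutation p = 0.0372). In WT 18 h replicate 1 and KO 18 h replicates 1 and 2 the best summit lay 2.5 kb past the start, beyond the end of the gene. Both 18 h comparisons thus set different summits against each other in part.

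The Ccl7 -3.8 kb element had its highest ranks at 18 h. It lay between Ccl2 and Ccl7 (chr11:82041461-82042532) and ranked 26188.5, 26386 and 27108.5 in WT at 0 h, 17413.5 and 31111 at 1 h, and 4913.5, 6605 and 5367.5 at 18 h. Among KO lists the ranks were 30677 in 1 list at 0 h, 32878 and 33713.5 in 2 lists at 1 h, and 17260, 3823.5 and 7442.5 at 18 h. Standing was 0.12 above 0 h at 1 h (adjusted permutation p = 0.571), 1.88 above it at 18 h and 1.76 higher at 18 h than at 1 h. With ranks cut at 10000 both late differences were 0.72 and did not pass (adjusted permutation p = 0.0998 and 0.0945). It passed the filter through LPS lists alone, and without the filter neither late difference passed (adjusted permutation p = 0.0977 and 0.108). Its lowest list at 18 h was the one with narrow peaks, KO 18 h replicate 1. The Ccl7 +21.5 kb element was higher at both times, by 1.00 and 1.05 (adjusted permutation p = 0.0272 and 0.0335), and with ranks cut at 10000 by 0.36 and 0.28, which did not pass.

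Ccl12, the third Ccr2 ligand, stood higher at both times. Its promoter element (chr11:82099340-82102690, gene at chr11:82101845-82103400, + strand) ranked 19832, 20964.5 and 16172 in WT at 0 h, 4926 and 7344.5 at 1 h and 7654.5, 9646.5 and 8450.5 at 18 h. KO lists gave ranks of 26022.5 and 23586 at 0 h with no peak in replicate 3, then 13385, 9346 and 6425 at 1 h and 17260, 8892 and 6961.5 at 18 h. Every 1 h list stood above every 0 h list, whereas at 18 h KO 18 h replicate 1 lay among them. The difference was 1.51 at 1 h (adjusted permutation p = 0.0272) and 1.19 at 18 h (adjusted permutation p = 0.0335), and the change from 1 h to 18 h, -0.32, did not pass (adjusted permutation p = 0.452). With ranks cut at 10000 the differences from 0 h were 0.49 (adjusted permutation p = 0.0737) and 0.23 (adjusted permutation p = 0.0998), and the 18 h call was also lost without any 1 of the KO 0 h lists. A second summit 1.5 kb upstream (-1.5 kb) appeared in 6 of 6 lists at 18 h, 1 of 5 at 1 h and 0 of 6 at 0 h. Ccl8, at chr11:82115185-82116799, stayed apart from its neighbours: its promoter held a peak in 1 of 17 lists, WT 18 h replicate 1, and none of the 3 elements nearest to it could be tested.

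Ccl5, a T cell and monocyte attractant, was the opposite of Ccl2 at rest. Its promoter element, the widest of all at 10360 bp (chr11:83520735-83531094, gene at chr11:83525778-83530518, - strand), had no peak in any of the 6 lists at 0 h and a peak in all 11 lists with LPS. In WT it ranked 5848.5 and 3147 at 1 h and 2616, 2286 and 3754.5 at 18 h. In KO it ranked 3526.5, 5022 and 3355.5 at 1 h and 3640, 3823.5 and 1030 at 18 h. With LPS, mean standing was 2.51 ± 0.63 and then 3.11 ± 0.37 in WT (SD, n = 2 and 3) and 2.64 ± 0.32 and then 3.33 ± 1.07 in KO (n = 3 each). Every LPS list stood above every 0 h list, by 2.58 at 1 h and 3.22 at 18 h. These values depend on the cut at rank 24389, because the 0 h lists have no rank to compare, and with the cut at 10000 they were 1.29 and 1.93. When a peak had to cover 50% of the element they were 0.49 (adjusted permutation p = 0.362) and 1.87 (adjusted permutation p = 0.163). This element passed the filter through LPS lists alone, and without the filter neither difference passed (adjusted permutation p = 0.0793 and 0.0977). Standing at 18 h exceeded that at 1 h by 0.64, which did not pass (adjusted permutation p = 0.255). The element held 7 recurrent summits, from 59 bases upstream of the start (-59) to 8.1 kb past it, beyond the end of the gene, and none was seen in a list at 0 h, while 5 were seen in all 11 LPS lists. The 0 h lists without the peak included the longest of all, WT 0 h replicate 3, with 71456 intervals.

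**Figure D3:**
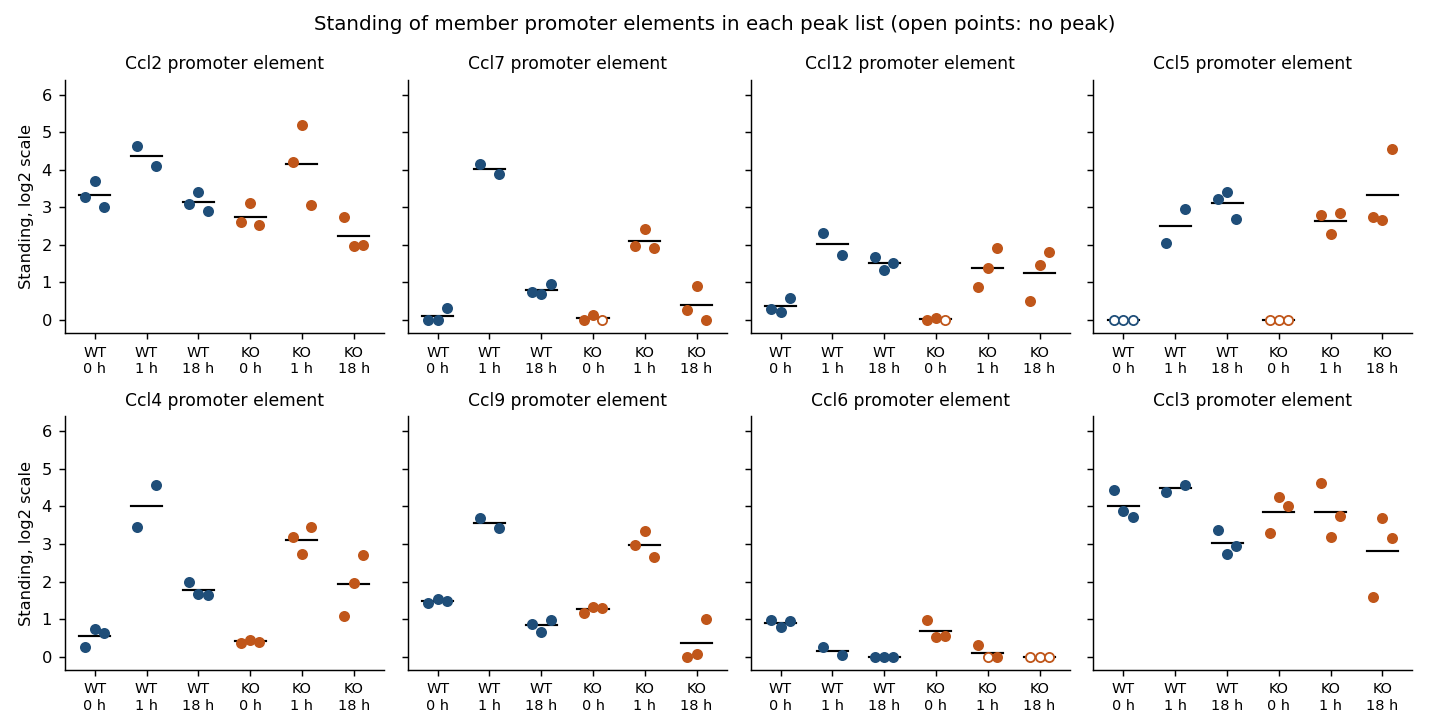
Standing (log2 scale, 0 meaning no peak or a rank past 24389) of 8 promoter elements in each list, WT in blue and KO in orange, with open points for lists without a peak and bars for group means. Ccl2 and Ccl3 stood high in all lists, Ccl5 had no peak in the 6 lists at 0 h, and Ccl7, Ccl4 and Ccl9 peaked at 1 h.

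Upstream of Ccl5, 5 elements were higher at 1 h, and 4 of them also at 18 h. The Ccl5 -4.4 kb element (chr11:83531586-83535493), shown above with NF-kB and ISRE matches, ranked 26188.5, 21810 and 22190.5 in WT at 0 h, 1894.5 and 2448.5 at 1 h and 5697, 4783 and 6474.5 at 18 h. The KO ranks were 19507.5, 30918.5 and 20688.5 at 0 h, 3402.5, 6173.5 and 2909 at 1 h, and 13081, 11750 and 5354.5 at 18 h. Unlike the promoter it had a peak in all 17 lists, and every LPS list stood above every 0 h list, by 2.92 at 1 h (adjusted permutation p = 0.0272) and 1.61 at 18 h (adjusted permutation p = 0.0335). The change from 1 h to 18 h, -1.32, did not pass (adjusted permutation p = 0.0607), and with ranks cut at 10000 the 1 h difference was 1.78 and that at 18 h 0.57, which was not called (adjusted permutation p = 0.185). The Ccl5 -10.7 kb element was 0.92 higher at 1 h (adjusted permutation p = 0.0442) and 1.63 higher at 18 h (adjusted permutation p = 0.0335; 0.63 with ranks cut at 10000), and the -13.9 kb element 1.08 and 1.36 higher. Neither changed between 1 h and 18 h by a difference that passed (0.71, adjusted permutation p = 0.118, and 0.28, adjusted permutation p = 0.53). The Ccl5 -20.0 kb element was 1.24 and 0.72 higher at 1 h and 18 h. The Ccl5 -6.1 kb element was among the best peaks in 5 of 5 lists at 1 h and in no other list, a difference of 1.14 between 1 h and 0 h, and it too passed the filter through LPS lists alone.

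Ccl4 and Ccl3, a pair of neighbouring inflammatory chemokines, differed in their state before LPS. The Ccl4 promoter element (chr11:83661367-83667526, gene at chr11:83662584-83664683, + strand) ranked 20424.5, 14649 and 15816.5 in WT at 0 h, 2228.5 and 1016 at 1 h, and 6104.5, 7738 and 7862.5 at 18 h. Among KO lists the ranks were 18882, 17833 and 18588 at 0 h, 2682.5, 3683 and 2241 at 1 h and 11542, 6227 and 3706.5 at 18 h. Its difference at 1 h, 3.10, was the largest of the 31 elements under the main limit on ranks (adjusted permutation p = 0.0272). With whole ranks and no cut the difference of the Ccl5 promoter was larger, 3.68 against 3.10. The Ccl4 promoter was 1.37 higher at 18 h (adjusted permutation p = 0.0335). With ranks cut at 10000 the 18 h difference was 0.59 and was not called (adjusted permutation p = 0.0998). Every LPS list stood above every 0 h list. In WT 0 h replicates 2 and 3 and KO 0 h replicate 1 the best summit lay 1.1 kb past the start. In KO 0 h replicate 3 and KO 18 h replicates 1 and 3 it lay 3.5 kb past it, beyond the end of the gene. Both differences from 0 h thus set different summits against each other in part. With elements formed from summits they were 3.45 (adjusted permutation p = 0.0305) and 1.61 (adjusted permutation p = 0.0389). The Ccl4 -3.5 kb element, between Ccl3 and Ccl4, was among the best peaks in 5 of 5 lists at 1 h and in no other, with a difference of 0.86 between 1 h and 0 h, again past the filter through LPS lists alone.

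The Ccl3 promoter element (chr11:83645966-83650161, gene at chr11:83647844-83649355, - strand) was open throughout. It ranked 1129.5, 1654.5 and 1861 in WT at 0 h, 1163.5 and 1016 at 1 h and 2334, 3664 and 3181.5 at 18 h. KO lists gave ranks of 2485, 1283.5 and 1515 at 0 h, 986, 2689 and 1814.5 at 1 h and 8178, 1880 and 2733 at 18 h. The lists at 0 h and 1 h overlapped, with a difference of 0.24 (adjusted permutation p = 0.595), and that at 18 h, -1.01, did not pass (adjusted permutation p = 0.0748), though it did with whole ranks and no cut (adjusted permutation p = 0.0479). The Ccl3 +8.8 kb element, downstream of the gene and in all 17 lists, was 0.75 higher at 1 h (adjusted permutation p = 0.0442; 0.0503 with ranks cut at 10000) and 0.66 higher at 18 h (adjusted permutation p = 0.0556), which passed without a cut (adjusted permutation p = 0.0372) and with list length as a covariate (adjusted permutation p = 0.0263).

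Ccl9 and Ccl6, the myeloid ligands of Ccr1, were the genes whose promoters were called lower at 18 h than at 0 h. The Ccl9 promoter element (chr11:83574067-83579544, gene at chr11:83572919-83578636, - strand) ranked 9088, 8420 and 8802 in WT at 0 h, 1894.5 and 2258 at 1 h, and 13332.5, 15426 and 12299 at 18 h. In KO it ranked 10823, 9687 and 9858.5 at 0 h, 3116.5, 2416.5 and 3897.5 at 1 h, and 28007, 23272.5 and 12164 at 18 h. Every list at 1 h stood above and every list at 18 h below every list at 0 h, by 1.90 (adjusted permutation p = 0.0272) and -0.77 (adjusted permutation p = 0.0335). The 18 h call was lost with ranks cut at 10000 (-0.11, adjusted permutation p = 0.0998) and with elements formed from summits (-0.96, adjusted permutation p = 0.087), and the 1 h difference turned to -0.44 when a peak had to cover 50% of the element. Its 2 main summits parted. The one 146 bases past the start, in an exon, had ranks among all summits of a list of 2100 to 4322.5 at 1 h, 9874.5 to 12846.5 at 0 h and 22238 to 32880 in the 5 lists that held it at 18 h. The one 1.3 kb past the start, in all 17 lists, ranked from 9452 to 20079 at 0 h and 1 h and from 14371.5 to 39271 at 18 h. It was the better of both in 5 of 6 lists at 18 h, so that the 18 h difference of the element compares different summits in most lists. The Ccl9 -2.4 kb element was 1.88 higher at 1 h (adjusted permutation p = 0.0272) and back to 0.28 above 0 h at 18 h (adjusted permutation p = 0.281). The Ccl9 -4.7 kb element, in an intron of E230016K23Rik, was 0.87 higher at 1 h (adjusted permutation p = 0.0272) and had a peak in 0 of 6 lists at 18 h.

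The Ccl6 promoter element (chr11:83591324-83593856, gene at chr11:83587882-83593087, - strand) was the single one to fall at 1 h. It ranked 12398, 14049 and 12641.5 in WT at 0 h, 20457 and 23650 at 1 h, and 25059.5, 28850.5 and 45390 at 18 h. The KO ranks were 12315.5, 16940.5 and 16815 at 0 h, 19735 and 25453 at 1 h with no peak in replicate 2, and no list at 18 h had a peak. All LPS lists stood below all 0 h lists, by -0.67 at 1 h (adjusted permutation p = 0.0272) and -0.79 at 18 h (adjusted permutation p = 0.0335). Its +6.4 kb element, with its summits past the end of the gene, had a peak in 6 of 6 lists at 0 h, 1 of 5 at 1 h and 0 of 6 at 18 h. It was among the best 24389 peaks of 1 list alone and could not be tested. Around Ccl9, Ccl6 and Ccl3 lay the 6 elements that had a peak at 0 h and in no LPS list, with 0 such elements in the Ccl2 cluster. Such elements made up 9.52% of the 63 and 15.7% of all 99504 elements. No peak at 0 h was found at 8 of 17 elements of the Ccl2 cluster and 14 of 46 of the Ccl5 cluster, together 34.9% of the 63, against 19.8% of all. There were 11 LPS lists against 6 at 0 h, and 10 of the 63 elements came from 1 list.

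**Figure D4:**
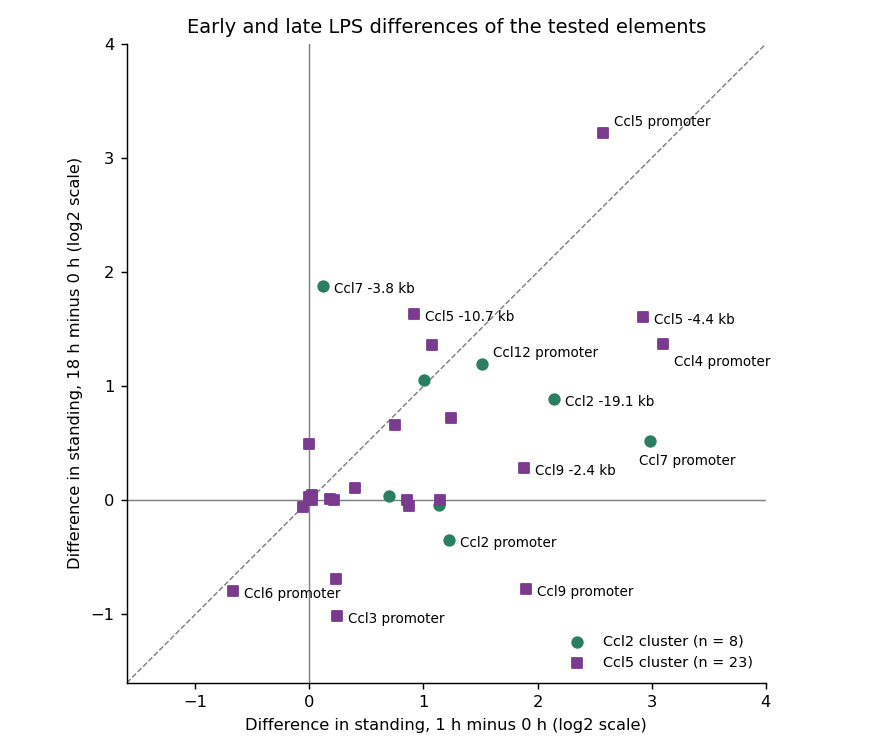
Difference in standing from 0 h at 1 h (x axis) and at 18 h (y axis), both on the log2 scale, for the 31 tested elements of the Ccl2 cluster (circles) and the Ccl5 cluster (squares), the dashed line marking equal differences. The Ccl5 promoter (2.58, 3.22) and the Ccl7 -3.8 kb element (0.12, 1.88) lie above the line, and the Ccl4, Ccl7, Ccl9 and Ccl2 promoters below it.

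Set side by side inside each list, the Ccl5 promoter stood below the Ccl2 promoter in all 6 lists at 0 h and all 5 at 1 h. The standing of Ccl5 minus that of Ccl2 was -3.69 to -3.00 in WT and -3.10 to -2.54 in KO at 0 h, -2.58 to -1.14 and -2.91 to -0.21 at 1 h, and -0.21 to 0.14 and 0 to 2.56 at 18 h. The closest list at 1 h, KO 1 h replicate 3, lay as near as the lowest WT list at 18 h. The values of 0 h, where Ccl5 had no peak, are set by the cut at rank 24389. This contrast was fixed by how the genes were chosen and is given without a test. Of the 19 elements that rose at 1 h, 11 then fell by 18 h, Ccl2 included (57.9%), as did 53.0% of all 3482 elements that rose at 1 h. Of the same 19, 9 were also higher at 18 h than at 0 h, Ccl5 included (47.4%, all 20.5%). Of the 19, 3 passed the filter through LPS lists alone, the Ccl5 promoter among them, and these shares were not computed without them. These comparisons share their 1 h or 0 h lists.

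Loss of Nur77 gave no called difference at any of the 31 elements. Over the 3 times together, 0 of 31 passed at an adjusted p under 0.05 and 0% of all 34139 did, in exact permutation tests within time whose smallest adjusted p over all elements was 0.115. At an unadjusted p under 0.05, 4 of 31 were lower in KO and none higher, where 6.98% of all tested elements passed in either direction. That share was not split by direction, so it does not show whether lower values in KO are particular to these elements. These were the Ccl7 promoter (-0.79, p = 0.01), Ccl9 +9.1 kb (-0.54, p = 0.00975), Ccl9 promoter (-0.42, p = 0.0147) and Ccl2 -12.8 kb (-0.30, p = 0.0403), by exact permutation tests. With elements formed from summits both Ccl9 differences were smaller, -0.34 (exact permutation p = 0.4) and -0.16 (exact permutation p = 0.475). The KO minus WT difference at the Ccl2 promoter was -0.56 (adjusted permutation p = 0.703). Taken time by time it was -0.57 before LPS, -0.21 after 1 h and -0.90 after 18 h. At the Ccl5 promoter it was 0.12 (adjusted permutation p = 0.966), made up of 0 before LPS, 0.14 after 1 h and 0.22 after 18 h. With the length of the lists in the fit the Ccl2 and Ccl5 differences were -0.61 and 0.20.

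The genotypes also did not part in their response to LPS by a difference that passed. Over all elements 0 passed for the difference of responses at 1 h or at 18 h (smallest adjusted permutation p = 0.933 and 0.936, exact permutation tests), and 1225 and 1229 had an unadjusted p under 0.05. Of the 31, 0 and 2 did, the 2 at 18 h being Ccl2 -19.1 kb and Ccl3 +8.8 kb. The Ccl7 promoter rose by 3.91 in WT and 2.06 in KO at 1 h, so that the KO response was -1.85 away from that of WT (p = 0.08 by exact permutation, 0.933 adjusted), the WT lists ranking 1375.5 and 1634.5 and the KO lists from 4525 to 6425. The Ccl2 promoter rose by 1.05 and 1.41 and the Ccl5 promoter by 2.51 and 2.64 in WT and KO at 1 h. At 18 h the Ccl2 -19.1 kb element was 0.45 higher in WT and 1.33 higher in KO, the responses lying 0.89 apart (p = 0.015 by exact permutation, 0.936 adjusted), with 2 KO lists at 0 h lacking the peak. The Ccl3 +8.8 kb element was 0.23 higher in WT and 1.09 higher in KO, 0.86 apart (p = 0.02 by exact permutation, 0.936 adjusted).

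Of 24 other genes of CC chemokines and their receptors, 4 had a promoter element that could be tested. Ccrl2, a nonsignalling chemerin-binding receptor, was 1.34 higher at 1 h (adjusted permutation p = 0.0272) and 1.11 higher at 18 h (adjusted permutation p = 0.0748). Ccr1, the receptor of Ccl3, Ccl5, Ccl6 and Ccl9, was 0.17 from 0 h at 1 h (adjusted permutation p = 0.455) and fell by 0.93 from 1 h to 18 h (adjusted permutation p = 0.0372). The chemokines Ccl24 and Ccl25 passed in no comparison. Ccr2, the receptor of Ccl2, Ccl7 and Ccl12, had no promoter peak in any list.

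Over the 17 lists, the gene with the promoter element most like that of Ccl2 in standing was Cox7a1 (Spearman's rho 0.850), followed by Vash2 (0.826), Cr1l (0.804), Sdc4 (0.801) and Mcoln2 (0.799), of 11104 genes with a median of -0.105. The Ccl5 promoter was most like that of Iqgap3 (0.916), then Il15ra (0.884), Osgin1 (0.883), Tarm1 (0.875) and Cd69 (0.857), beside a median of -0.154. Among the 9 genes, Ccl2 was closest to Ccl9 (0.721) and Ccl7 (0.543), and Ccl5 to Ccl12 (0.697) and Ccl4 (0.685) and opposite to Ccl6 (-0.791), whereas the value between Ccl2 and Ccl5 was 0.01. The lists share the LPS treatment and differ in depth, and these values describe the 17 lists only.

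In the 200 bases around the best summit, ISRE matches were found in 5 of the 31 tested elements (16.1%) and in 3.63% of all tested elements, and NF-kB matches in 4 (12.9%) against 4.82%. AP-1 matches were found in 5 (16.1%, all elements 16.2%), C/EBP matches (TTGCNNAA or TTACNNAA) in 4 (12.9%, all 16.9%), PU.1 matches (GAGGAAGT) in 2 (6.45%, all 7.69%) and NBRE matches in 0 (all 1.05%). The elements that held an NBRE match were Ccl2 -15.6 kb, Ccl2 -5.3 kb and Ccl8 +21.1 kb, none of which could be tested. The NF-kB matches lay at Ccl2 -19.1 kb, Ccl5 -4.4 kb, Ccl5 -20.0 kb and the Ccl5 promoter. The ISRE matches lay at Ccl7 -3.8 kb, Ccl5 -4.4 kb, Ccl5 -6.1 kb, Ccl5 -10.7 kb and Ccl4 -3.5 kb, which included the late element and 2 of the elements seen among the best peaks at 1 h alone. The Ccl5 promoter and 3 of these 5 ISRE elements, Ccl7 -3.8 kb, Ccl5 -6.1 kb and Ccl4 -3.5 kb, passed the filter through LPS lists alone, so that the filter had a part in these shares. Among the other 23 tested elements, ISRE matches lay at Ccl5 -4.4 kb and Ccl5 -10.7 kb only. In the 250 bases before the start, NF-kB matches were found in 3.90% and NBRE matches in 1.34% of all 32851 promoters. Motifs were searched on both strands, AP-1 also as TGAGTCA, and these counts describe letters in the reference, not binding.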

How the data were processed

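ATAC-seq peak lists of 17 macrophage samples were used as deposited. The authors trimmed reads with cutadapt 2.6, aligned them to mm10, processed them with snakeATAC and used DiffBind 3.0.15 downstream, per the labels and the study's methods. Peak names show a mapping quality of at least 20, removal of mitochondrial and duplicate reads and a q threshold of 0.001, and peaks were called per sample by a caller not given in the sources used here. The authors deposited for each peak an integer score, a fold enrichment over background, a -log10 p-value and a -log10 q-value, and only the -log10 p-value was used to rank peaks; the fold and the summit height gave the background reads per summit.

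Entries of 1 interval were reduced to the best summit, ranked inside each list, and merged over the 17 lists where they overlapped by at least 1 bp. Ranks past 24389, the length of the shortest list, were set to that rank, and elements among the best 24389 of at least 2 lists were tested (34139). Group means of standing were compared by two-sided exact permutation tests, stratified by genotype for LPS and by LPS time for genotype, with Benjamini-Hochberg adjustment at 0.05 over all tested elements, and the smallest p was 0.005 for LPS and 0.00025 for genotype. The test was checked on simulated lists of equal length, with even, independent noise and no absent peaks. There, at 1 h against 0 h, it recovered the direction of moved elements and the size of rises, understated falls and kept its error rate. It called none after adjustment when few elements were moved, since calls need many elements at the smallest p. The check does not cover unequal list lengths, absent peaks or uneven spread, which the lists used here have. Differences carry no model standard error. Peaks hold no per-gene expression, and levels between lists were compared by rank only because depth differed.

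Start sites and annotation were those of GENCODE genes on mm10. By rule, the text names the elements within 1 kb of a start site of the 9 genes, the 3 elements of each cluster with the best mean rank, the 5 with the largest difference in each of 4 comparisons, and the 5 genes most like Ccl2 and Ccl5. Other elements named to complete a gene's account, the summits inside broad elements, the contrast of Ccl5 with Ccl2 inside each list and the motif windows were picked after seeing the values. Genes, elements and lists were chosen with earlier results of these data known. Alternatives were other rank limits, presence in place of rank, other ways to form elements, no filter, list length as a covariate, a replicate block, other reaches and leaving out each list. Python 3.11.15, numpy 2.4.6, pandas 2.3.3, SciPy 1.17.1 and matplotlib 3.10.9 were used. Some items are not reported here.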

Additional observations from a re-analysis of the deposited data

How the results depend on the processing

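The smallest p of the exact tests is fixed by the number of lists, and several alternatives left no element of the series past the threshold, near the chemokine genes or elsewhere. Against 20, 12 and 13 elements called at 1 h against 0 h, at 18 h against 0 h and at 18 h against 1 h, presence among the best peaks, peaks covering 50% of the element, no filter and the replicate block each gave 0, with smallest adjusted p over all elements of 0.107, 0.133 and 0.127, then 0.0978, 0.163 and 0.384, then 0.0793, 0.0977 and 0.108, then 0.368, 0.161 and 0.496. A rank limit of 10000 left 18 elements to test and 7, 2 and 6 calls. No limit gave 22, 17 and 15 calls, elements from summits 20, 11 and 12, and list length as a covariate 22, 14 and 12. The count for KO against WT was 0 throughout.

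At 1 h against 0 h, the Ccl2 promoter difference of 1.23 missed the threshold with the limit at 10000 (1.23, adjusted permutation p = 0.0503), by presence (0), by 50% cover (1.74), without a filter (1.23) and with the block (1.25). That of the Ccl5 promoter, 2.58, missed it by presence (1), 50% cover (0.49), without a filter (2.58) and with the block (2.80), and at 18 h, 3.22, by presence (1), 50% cover (1.87), without a filter (3.22) and with the block (3.22). The 50% cover turned the direction of the Ccl2 promoter at 18 h against 0 h (0.58) and of the Ccl5 promoter for KO against WT (-0.42), neither called before or after. It also turned Ccl2 -19.1 kb at 1 h (-0.11) and from 1 h to 18 h (0.36), the Ccl9 promoter at 1 h (-0.44), Ccl7 +21.5 kb at 18 h (-0.00115), Ccl3 +8.8 kb from 1 h to 18 h (0.41) and the Ccl3 promoter for KO against WT (0.51). Near 0, Ccl7 +21.5 kb from 1 h to 18 h turned with the limit at 10000 (-0.084), 50% cover (-0.81) and the block (-0.34). For KO against WT, Ccl2 -19.1 kb turned without a limit (-0.00124), by presence (-0.22), 50% cover (-0.31) and the block (-0.14), and Ccl7 +21.5 kb by presence (-0.11), 50% cover (-0.18) and the block (-0.22). Why these moved was not tested. With 10 kb in place of 20 kb the reach held 41 elements.

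Leaving out each list in turn, the calls ranged from 0 to 18 at 1 h against 0 h, from 6 to 13 at 18 h against 0 h, and were 0 in every case at 18 h against 1 h, as they were between the genotypes. The Ccl2 and Ccl5 promoter differences ranged from 0.97 to 1.50 and from 2.35 to 2.80 at 1 h, and from -0.47 to -0.26 and from 2.91 to 3.38 at 18 h. Between the genotypes they ranged from -0.73 to -0.38 and from -0.0888 to 0.267. Ccl7 +21.5 kb ranged from -0.24 to 0.34 between 1 h and 18 h and from -0.0390 to 0.35 for KO against WT, and Ccl2 -19.1 kb from -0.00573 to 0.19 for KO against WT.

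Whether replicate numbers pair the samples could not be told. Over 18 pairs of lists with the same number the correlation of deviations ran from -0.226 to 0.156, and over 36 pairs with different numbers from -0.276 to 0.404. These pairs leave out WT 1 h, and with few lists of unequal length in a group such values neither show nor exclude pairing. The replicate block had 4, 6, 4 and 7 pairs, so that its p could not fall below 0.125, 0.03125, 0.125 and 0.0156, and it gave 0 calls in all 4 comparisons. Depth was given by no file, and the shorter KO lists at 18 h and 2 short KO lists at 0 h limit what a missing peak shows.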
